A study of Homo sapiens with 5 samples.

Results

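The 35 genes described here carry out or control the synthesis of cholesterol and fatty acids in human cells. They were taken by symbol from 26364 listed genes, by pathway role and not by a threshold on these data, although earlier results of the data were known when they were chosen. They fall into 5 roles: 7 genes of the mevalonate branch, 11 that turn its product into cholesterol, 5 that regulate the pathway, 8 of fatty acid synthesis and 4 that move sterols between or out of membranes. All 35 were listed and had reads. The libraries were mRNA-seq of IMR-90 cells, a human lung fibroblast line, collected 24 hr after siRNA transfection. Ctr-KD cells (2 libraries) received a control siRNA. NSD2-KD cells (3 libraries) received an siRNA against NSD2, a histone methyltransferase, with a different siRNA in each library (NSD2-1, NSD2-2 and NSD2-3), so that the siRNA and the replicate cannot be told apart. Both groups were the same line with no further treatment, and untransfected cells were not analysed here.

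As background, acetyl-CoA is built up through mevalonate to farnesyl diphosphate, joined into squalene, closed into the first sterol ring and trimmed to cholesterol in the endoplasmic reticulum. The transcription factors SREBP, encoded by SREBF1 and SREBF2, are held there by SCAP and the INSIG proteins while sterol is plentiful and move to the nucleus when it is short, where they raise the genes of both pathways. Dividing cells need both products for new membrane. The comparison asks whether the transcripts of this supply changed when NSD2 was depleted, a condition under which the marker genes of dividing cells were low in the same libraries.

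Values are normalized counts, the reads on a gene divided by 1 size factor for each library. Reads on genes ran from 2473691 to 2845063 per library, and a floor of 3 reads was worth between 2.76 and 3.28 normalized counts. NSD2, listed as WHSC1, had 463 and 443 normalized counts in Ctr-KD cells and 90.2, 81.9 and 87.9 with NSD2-1, NSD2-2 and NSD2-3, a log2 difference of -2.37 (standard error 0.12, limma adjusted p = 0.000464). Of 10 fibroblast markers, all were tested, with FAP the lowest at 144, while the epithelial, leukocyte, adipocyte and hepatocyte markers did not exceed 2.93. Of 5 endothelial markers, PECAM1 and CDH5 were at 0 and TEK reached 150. The summed level of 10 genes of dividing cells was 2899 and 3031 in the Ctr-KD libraries and between 1038 and 1679 in the NSD2-KD libraries, where 9 of the 10 lay below both Ctr-KD libraries. That list too was written with earlier results known, and gives no independent support. In bulk libraries, fewer cells expressing a gene and less RNA per cell cannot be told apart. The 2 Ctr-KD libraries, which the study calls biological replicates, were nearly as alike as counting noise allows. Their chi-square was 1.05 for each degree of freedom, where the other pairs had 3.87 to 5.29, so p-values measure only the spread between these 5 libraries.

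The SREBP factors bind a sterol response element in promoters, usually next to boxes for the factors NF-Y and Sp1. RefSeq promoters on GRCh38.p14, from 250 bases before to 50 after the gene start, were at hand for 31 of the 35 genes, the others being ACAT2, FDFT1, SQLE and FASN. The core TCACNCCAC was found in 1 of the 31 (3.23%), SREBF2, and in 1.15% of 27305 promoters. Only this string was searched, with any base at N, so elements with other letters, or outside the searched bases, would be missed. CCAAT, the NF-Y box, was in 19 of the 31 (61.3%) against 35.7% of all promoters and 36.7% of those of tested genes, and GGGCGG, the Sp1 box, was in 28 (90.3%) against 44.6% and 71.6%. Both strands were searched, and matches could overlap. Below are the 160 bases before the gene start, on the strand of the gene, with these 3 motifs in capitals. SREBF2 is shown because it alone held the core, HMGCS1 and MSMO1 as sterol synthesis genes that were lowest with NSD2-2, INSIG1 as a sterol sensor that was lowest with NSD2-3, and ELOVL5 as the gene furthest below Ctr-KD cells. The windows lie at chr22:41832945-41833104 (plus strand), chr5:43313413-43313572 (minus), chr4:165327509-165327668 (plus), chr7:155297718-155297877 (plus) and chr6:53348951-53349110 (minus), in that order.
SREBF2: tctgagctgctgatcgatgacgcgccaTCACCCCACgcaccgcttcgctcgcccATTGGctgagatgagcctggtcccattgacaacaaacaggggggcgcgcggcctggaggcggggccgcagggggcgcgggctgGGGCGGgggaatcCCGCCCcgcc
HMGCS1: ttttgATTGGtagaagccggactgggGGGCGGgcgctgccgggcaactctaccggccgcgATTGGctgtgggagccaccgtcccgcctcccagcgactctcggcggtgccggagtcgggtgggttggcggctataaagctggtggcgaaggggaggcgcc
MSMO1: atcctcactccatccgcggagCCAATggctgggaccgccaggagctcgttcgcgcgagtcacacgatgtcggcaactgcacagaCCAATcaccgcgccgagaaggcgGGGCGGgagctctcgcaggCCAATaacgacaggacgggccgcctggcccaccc
INSIG1: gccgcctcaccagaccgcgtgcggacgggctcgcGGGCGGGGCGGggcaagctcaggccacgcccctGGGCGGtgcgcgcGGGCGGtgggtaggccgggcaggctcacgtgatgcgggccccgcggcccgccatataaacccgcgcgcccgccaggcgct
ELOVL5: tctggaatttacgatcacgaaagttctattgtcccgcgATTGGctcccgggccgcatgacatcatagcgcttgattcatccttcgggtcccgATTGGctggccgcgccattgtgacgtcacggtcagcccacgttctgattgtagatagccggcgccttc

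In the windows shown, SREBF2 had 1 sterol core, 1 NF-Y box and 2 Sp1 boxes. HMGCS1 had 2 NF-Y boxes and 1 Sp1 box, MSMO1 had 3 and 1, INSIG1 had 4 Sp1 boxes and no NF-Y box, and ELOVL5 had 2 NF-Y boxes alone. Boxes of the searched promoters outside these windows are not counted here. INSIG1 had such an NF-Y box, with its first base at -170 from the gene start. These letters describe the sequence only, since no binding was measured in these libraries.

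No gene of lipid synthesis passed the test in NSD2-KD cells, and for most of them a 2-fold change lay outside the interval. Of the 34 genes tested, which averaged 10 or more normalized counts over the libraries, 0 were lower and 0 higher at a limma adjusted p under 0.05, where 0.053% of the 11313 tested genes were lower and 0.0354% higher. The count was also 0 in both directions with edgeR, DESeq2 (adjusted p not given for 2 of the genes) and limma-voom. At an unadjusted p under 0.05, 1 gene was lower (2.94%, ELOVL5) and 0 were higher, against 4.99% and 4.19% of all tested genes. The log2 differences ran from -0.43 (ELOVL5) to 0.49 (HSD17B7), with 17 genes below 0 and 17 above it and a median of -0.0079, where the median of all tested genes was -0.0089.

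The intervals give the changes that these libraries still allow. The limma 95% interval of the difference lay within a 2-fold change either way for 33 of the 34 genes (97.1%), against 83.1% of all tested genes, the exception being HSD17B7. It lay within a 1.5-fold change for 25 (73.5%), against 45.0%. Counts were moderate to high, with 24 of the genes at a mean between 100 and 500 and 4 above it. Only 3 had a mean between 10 and 50, where 3727 of all tested genes stood. The shares were not matched for level, so they do not show these genes to be steadier than others of like count. In 2 genes, FDPS and ELOVL5, all NSD2-KD libraries lay below both Ctr-KD libraries (13.9% of all tested genes did so), and in 1, MVD, all lay above them (13.8%). The groups overlapped in the other 31.

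**Figure D1:**
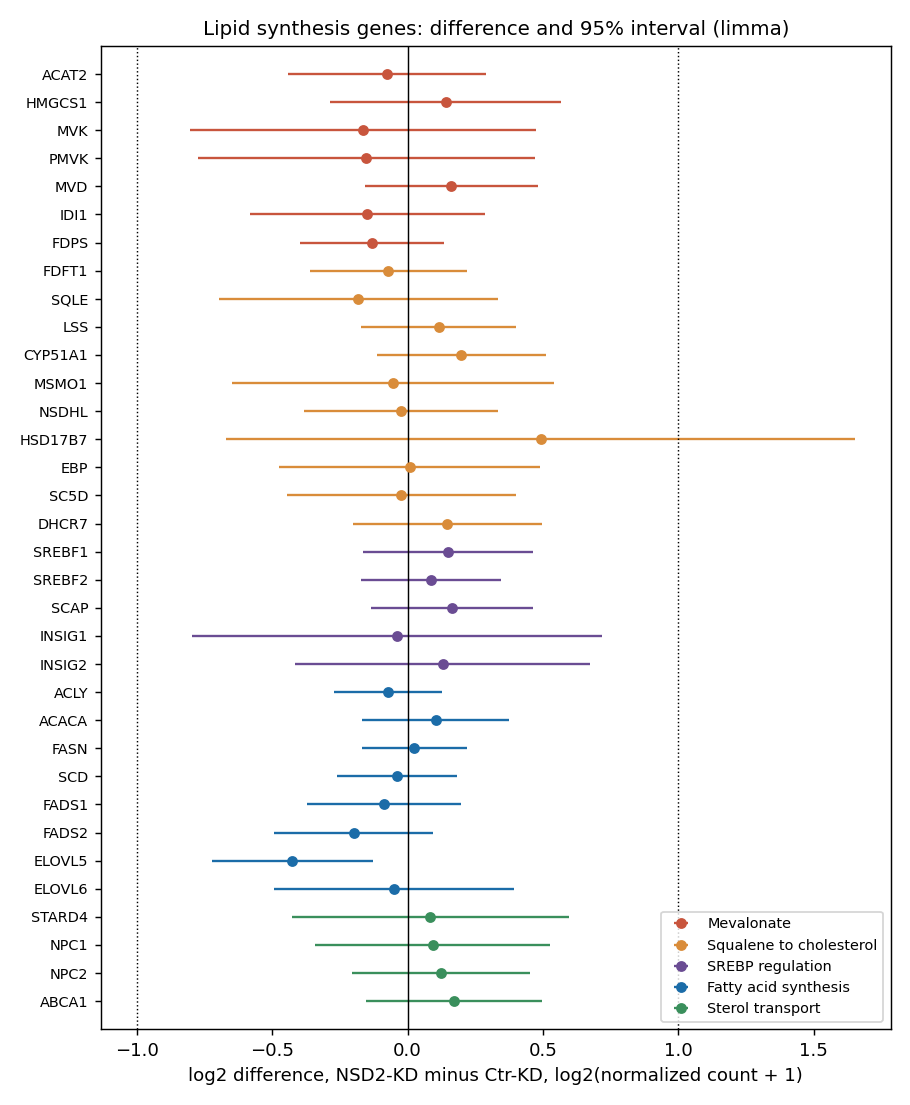
Log2 difference of NSD2-KD minus Ctr-KD cells for the 34 tested genes (points, limma on log2(normalized count + 1)) with 95% intervals (lines), coloured by role and listed in pathway order; dotted lines mark a 2-fold change. The interval of ELOVL5 alone leaves 0 out (-0.72 to -0.13), and that of HSD17B7 alone passes the 2-fold lines (-0.67 to 1.65).

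Levels between genes were compared per kb of exon, on the normalized count scale of Ctr-KD cells. ACLY, which makes cytosolic acetyl-CoA from citrate, was highest at 276 ± 5.33 (SD, n = 2), followed by SCD, the stearoyl-CoA desaturase, at 133 ± 5.69 and FASN, the fatty acid synthase, at 108 ± 2.97. These 3 neighbours were separated by more than their spread. ELOVL5 at 82.1 ± 2.99 and FDPS at 78.0 ± 3.85 came next and were within their spread of each other. At the other end stood INSIG2 (6.23 ± 1.08) and MVK (6.02 ± 1.49), which were not separated by their spread either, and then HSD17B7 (1.76 ± 0.24) and TM7SF2 (1.59 ± 0.12). Fatty acid synthesis thus held 4 of the 5 highest levels, and the enzymes between lanosterol and cholesterol both of the lowest. Exon lengths came from GENCODE on GRCh37, the assembly of the mapping, and may include exons that these cells do not use.

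In the mevalonate branch the median log2 difference was -0.13 over 7 genes, 5 of them below 0. HMGCS1, the cytosolic synthase that makes the precursor of mevalonate, had 143 and 140 normalized counts in Ctr-KD cells and 191, 125 and 159 with NSD2-1, NSD2-2 and NSD2-3. It was thus above the Ctr-KD libraries with 2 siRNAs and below them with 1. FDPS, which makes farnesyl diphosphate, had 300.1 and 279.8 in Ctr-KD cells and 278, 245 and 272 in NSD2-KD cells. Its log2 difference was -0.13 (standard error 0.12, limma adjusted p = 0.795), and NSD2-1 lay next to the lower control. MVD, which decarboxylates mevalonate diphosphate, had 127 and 119 in Ctr-KD cells and 127, 138 and 149 in NSD2-KD cells, with a log2 difference of 0.16 (standard error 0.14, limma adjusted p = 0.791). With NSD2-1 it was less than 1 normalized count above the higher control.

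The kinases of the branch were less abundant and less precise. MVK, the mevalonate kinase, had 44.8 and 63.8 in Ctr-KD cells and 56.1, 33.9 and 56.6 in NSD2-KD cells, so that the NSD2-1 and NSD2-3 libraries fell between the controls. PMVK, which adds the next phosphate, had 47.6 and 44.2 against 57.1, 30.6 and 40.0. IDI1, the isomerase that supplies both building blocks of farnesyl diphosphate, had 116 and 159 against 137, 104 and 130, and ACAT2, the acetyl-CoA acetyltransferase that opens the pathway, 159 and 168 against 155, 132 and 182. In each of these 4 genes the lowest library was NSD2-2 and another siRNA lay within or above the control range. FDPS and IDI1 have 8 and 3 annotated pseudogenes. On the other strand, ACAT2 overlaps TCP1 and SOD2, and MVK overlaps MMAB. The counts of FDPS, IDI1, ACAT2 and MVK are therefore less certain.

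From squalene to cholesterol the median was -0.0079 over 10 tested genes, 5 below 0 and 5 above. SQLE, the squalene epoxidase, had 221 and 191 normalized counts in Ctr-KD cells and 221, 130 and 207 with NSD2-1, NSD2-2 and NSD2-3. MSMO1, which removes the methyl groups at the sterol ring, had 184 and 189 in Ctr-KD cells and 213, 119 and 229 in NSD2-KD cells. In both genes the NSD2-2 library stood below every other, at 63.0% of the Ctr-KD mean for SQLE and 63.8% for MSMO1, while NSD2-1 and NSD2-3 were at or above it. The group differences were small beside this spread, at -0.18 for SQLE (standard error 0.22, limma adjusted p = 0.858) and -0.053 for MSMO1 (standard error 0.26, limma adjusted p = 0.967).

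LSS, the cyclase that makes lanosterol, had 401 and 407 in Ctr-KD cells and 445, 385 and 490.03 in NSD2-KD cells. CYP51A1, the lanosterol demethylase, had 191 and 228 against 252, 217 and 251, and its log2 difference of 0.20 (standard error 0.14) had a limma adjusted p of 0.726, the smallest in the branch. DHCR7, the reductase of the last step, had 186 and 187 against 199.7, 180.2 and 245. All 3 were above the controls with NSD2-1 and NSD2-3 and overlapped them because of NSD2-2. CYP51A1 overlaps AKAP9 on the other strand and unnamed genes on its own strand, and has 3 annotated pseudogenes.

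HSD17B7, a sterol ketoreductase, was read few times: 7.62 and 9.26 normalized counts in Ctr-KD cells and 19.3, 5.46 and 16.6 in NSD2-KD cells. Its libraries ran from 5 to 21 reads, which left a log2 difference of 0.49 with a standard error of 0.51 (limma adjusted p = 0.83). It has 2 annotated pseudogenes. FDFT1, the squalene synthase, NSDHL and EBP, which act on the sterol ring, and SC5D, a desaturase, had log2 differences between -0.071 and 0.0073. NSDHL was the steadiest, with 73.4 and 80.2 in Ctr-KD cells and 78.2, 72.1 and 76.1 in NSD2-KD cells. EBP overlaps an unnamed gene on its own strand.

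Read by siRNA rather than by group, the sterol synthesis genes were lowest with NSD2-2. Of the 17 tested genes of both branches, 15 (88.2%) had their lowest NSD2-KD value with NSD2-2, against 34.8% of all tested genes, and 14 had their lowest value of all 5 libraries there, against 24.7%. None had its highest of the 5 there. The median log2 difference from the Ctr-KD mean was 0.098 with NSD2-1, -0.24 with NSD2-2 and 0.15 with NSD2-3, where all tested genes had 0.0055, 0.012 and 0.0044. The exceptions were MVD, lowest with NSD2-1 among the 3, and SC5D, whose NSD2-1 value of 96.6 was its lowest. This pattern was noticed after the values were seen, is a description of 1 library, and comes from genes that are not independent of each other.

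The same library had the lowest levels of the genes of dividing cells, at a median of -1.30 from the Ctr-KD mean against -0.77 with NSD2-1 and -0.64 with NSD2-3, and the fewest reads. The part of either in the sterol synthesis values was not tested. The values of SQLE and MSMO1 with NSD2-2 were outside counting error. Their exact Poisson 95% intervals were 108 to 156 for SQLE and 97.8 to 144 for MSMO1, where the lowest bound of a control was 165 for SQLE and 159 for MSMO1. These 2 were the only members of the 34 with an interval wholly below both controls in that library (5.88%), against 5.87% of all tested genes. They were 11.8% of the 17 tested sterol synthesis genes, the set in which the low values were noticed. Of the 34, 0 lay wholly above both controls, against 4.17% of all tested genes. Such intervals cover counting error only.

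**Figure D2:**
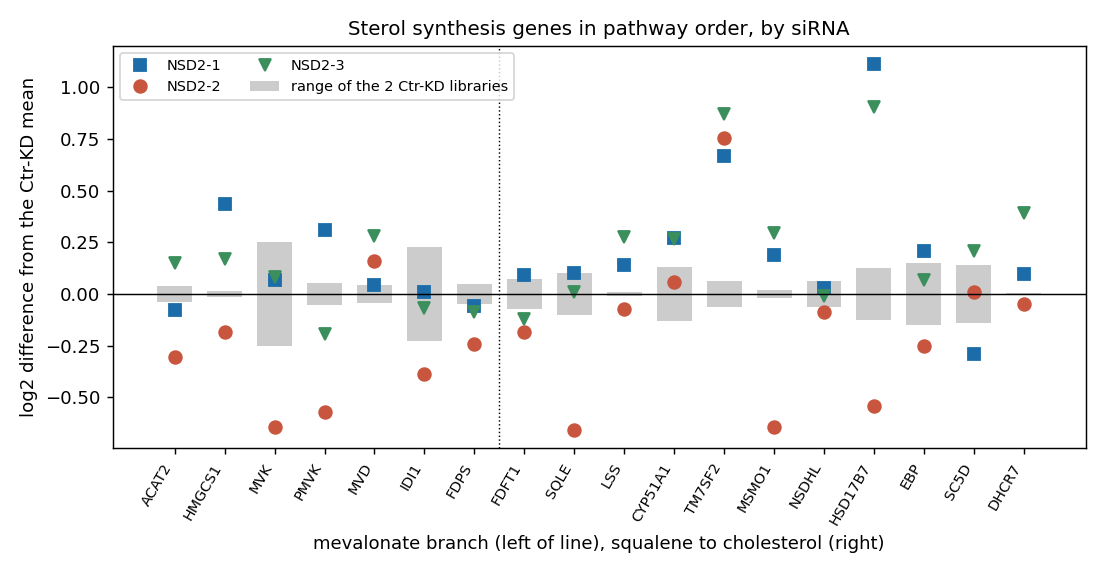
Log2 difference from the Ctr-KD mean, on log2(normalized count + 1), for each NSD2 siRNA (symbols) in the 18 sterol synthesis genes in pathway order, with the range of the 2 Ctr-KD libraries in grey. The NSD2-2 circles are the lowest symbol in 15 of the 17 tested genes; TM7SF2, with 5 to 11 reads per library, was not tested.

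NSD2-2 was singled out for the low values of the sterol synthesis genes, so leaving it out favours values above the controls in that set. The shares below restate that pattern and give no separate support. Without the NSD2-2 library, the median of the 17 genes was 0.075 and that of all 34 genes 0.056. Then 7 of the 17 (41.2%: HMGCS1, MVD, LSS, CYP51A1, MSMO1, HSD17B7 and DHCR7) had both remaining NSD2-KD libraries above both controls, and 10 of the 34 (29.4%), against 21.0% of all genes tested in that fit. Another 5 of the 34 (14.7%) were below both, against 20.6%. At an unadjusted p under 0.05, HSD17B7 was then higher and FADS2 and ELOVL5 lower, and the smallest limma adjusted p was 0.177, for ELOVL5. Leaving out any other single library also raised these counts, to between 3 and 7 below the remaining controls and between 3 and 6 above them. The count past the adjusted threshold was 0 with and without NSD2-2.

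The regulators had a median log2 difference of 0.13 over 5 genes. SREBF2, whose product mainly drives sterol synthesis, had 416 and 427 normalized counts in Ctr-KD cells and 495, 415 and 436 with NSD2-1, NSD2-2 and NSD2-3. SREBF1, whose product mainly drives fatty acid synthesis, had 169 and 147 against 160.1, 177 and 188. SCAP, the escort of the SREBP factors, had 204 and 254 against 253, 259 and 254, so that the 3 NSD2-KD libraries agreed within 1.02-fold and matched the higher control. None of the 3 was separated from the controls, and their limma adjusted p-values were 0.868, 0.803 and 0.764. SREBF1 overlaps RAI1 on the other strand.

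INSIG1, a sterol sensor that retains SCAP and is itself a target of the SREBP factors, varied most among the siRNAs in this group. It had 146 and 121 in Ctr-KD cells and 157, 180.2 and 76.1 in NSD2-KD cells, a ratio of 2.37 between the NSD2-2 and NSD2-3 libraries. With NSD2-3 it stood at 57.0% of the Ctr-KD mean, with a counting interval of 60.2 to 95.03 against 124 to 171 and 100.5 to 145 in the controls. Its order across the siRNAs thus differed from that of HMGCS1, SQLE and MSMO1, which were lowest with NSD2-2. The group difference was -0.040 with a standard error of 0.33 (limma adjusted p = 0.981), and its sign changed with the method (0.033 with edgeR and 0.041 with DESeq2). INSIG2, its less abundant relative, had 27.6 and 21.6 against 24.8, 29.5 and 26.4.

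**Figure D3:**
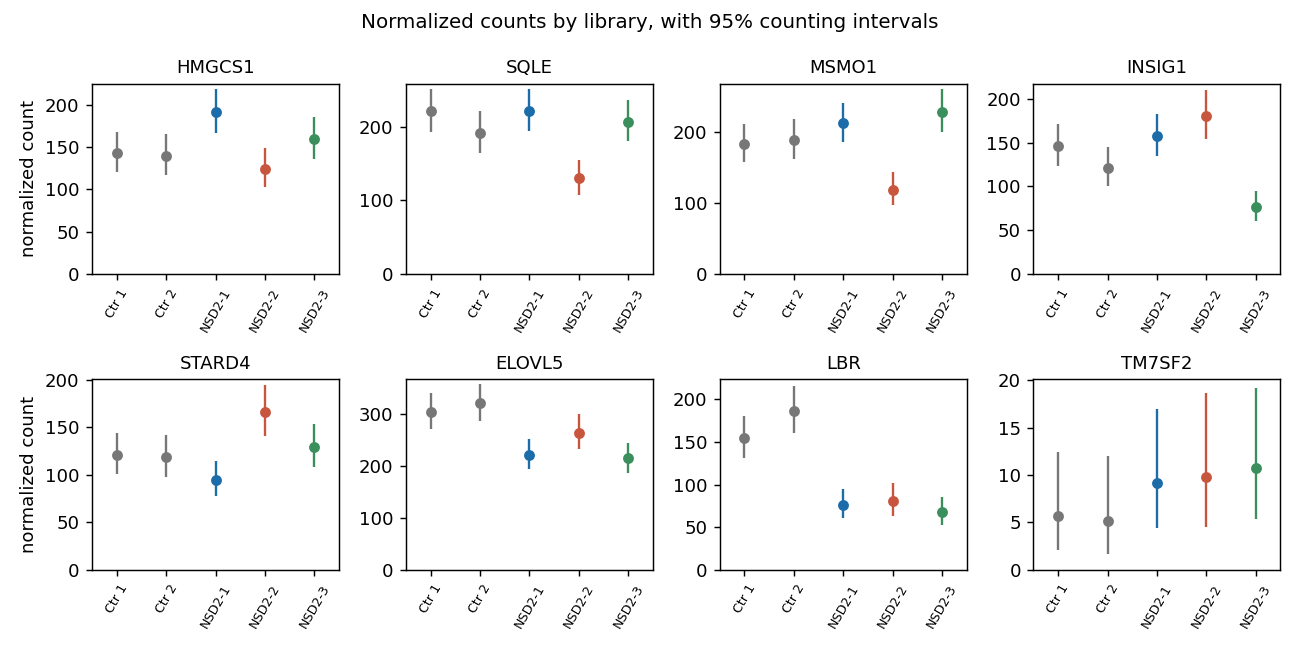
Normalized counts by library (points) with exact Poisson 95% counting intervals (lines) for 8 genes, each panel on its own axis from 0; Ctr 1 and Ctr 2 are Ctr-KD cells, and the siRNA names the NSD2-KD libraries. SQLE and MSMO1 are low with NSD2-2 alone, INSIG1 with NSD2-3 alone, and LBR with all 3 siRNAs (67.4 to 80.8 against 154 and 186).

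Fatty acid synthesis held the most abundant transcripts and the narrowest intervals, with a median log2 difference of -0.062 over 8 genes. ACLY had 1419 and 1458 normalized counts in Ctr-KD cells and 1307, 1444 and 1353 with NSD2-1, NSD2-2 and NSD2-3. FASN had 992 and 1031 against 1009, 1029 and 1050.3, a log2 difference of 0.025 with a 95% interval of -0.17 to 0.22. SCD, which makes monounsaturated fatty acids, had 720.2 and 678 against 688, 641 and 713. In these 3 genes the groups overlapped, and a 1.5-fold change lay outside the interval. ACACA, the carboxylase that makes malonyl-CoA, had 288 and 280 against 327, 276 and 314.

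ELOVL5, an elongase of polyunsaturated fatty acids on chromosome 6 (GRCh37, 53132196 to 53213977), was the gene furthest below Ctr-KD cells. It had 305 and 321 normalized counts in Ctr-KD cells (313 ± 11.4, SD, n = 2) and 222, 264 and 215 in NSD2-KD cells (234 ± 26.8, SD, n = 3). Every siRNA was below both controls, and NSD2-2 was the nearest to them. The log2 difference was -0.43 (standard error 0.13, 95% interval -0.72 to -0.13), with a limma adjusted p of 0.351 over all tested genes, which did not pass the threshold. Its unadjusted p in limma was 0.0107. Over the alternatives that kept both controls, its adjusted p ran from 0.177 (limma without NSD2-2) to 0.719 (DESeq2). The log2 difference was -0.46 without Ctr-KD replicate 1 and -0.39 without Ctr-KD replicate 2, where a lone control has no spread of its own. With groups of 2 and 3 an exact permutation test could reach no p under 0.1.

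FADS2, the desaturase that precedes ELOVL5 in making long polyunsaturated fatty acids, had 618 and 620.4 in Ctr-KD cells and 526, 627 and 475 in NSD2-KD cells. It was below the controls with NSD2-1 and NSD2-3 and above them with NSD2-2, and its log2 difference was -0.20 (standard error 0.13, limma adjusted p = 0.703). FADS1, the next desaturase, had 302 and 327 against 304, 322 and 266. With NSD2-1, FADS2 and ELOVL5 were the only 2 of the 34 genes with a counting interval wholly below both controls (5.88%, against 4.38% of all tested genes), and with NSD2-3 they were joined by INSIG1 (8.82%, against 4.16%). FADS1 and FADS2 overlap on opposite strands, and FEN1 lies within FADS2 on the same strand. ELOVL6, which elongates saturated fatty acids, had 119 and 114 against 95.7, 144 and 103.

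The 4 genes of sterol transport had log2 differences between 0.084 and 0.17, all above 0 and all overlapping the controls, with a median of 0.11. STARD4, which carries cholesterol between membranes, had 121 and 118 in Ctr-KD cells and 94.8, 166 and 130 with NSD2-1, NSD2-2 and NSD2-3, so that it was highest in the library where most sterol synthesis genes were lowest. NPC1 and NPC2, which release cholesterol from lysosomes, had 172 and 156 against 207, 191 and 136 for NPC1, and 138 and 154 against 142, 164 and 174 for NPC2. NPC1 overlaps RMC1 and NPC2 overlaps ISCA2 on the other strand. ABCA1, the exporter of cholesterol to lipoprotein, had 235 and 257 against 317, 240.3 and 279, a log2 difference of 0.17 (standard error 0.14, limma adjusted p = 0.777).

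Over all roles, the spread between siRNAs was near that of all tested genes. The largest NSD2-KD value was above 1.5 times the smallest in 10 of the 34 genes (29.4%), against 30.1% of all tested genes. The larger control was above 1.5 times the smaller in 0 of the 34, against 5.88% of all tested genes. These 10 were HMGCS1, MVK, PMVK, SQLE, MSMO1, HSD17B7, INSIG1, ELOVL6, STARD4 and NPC1, with ratios from 1.51 to 3.54. All tested genes include many of low count: 49.3% of the 3727 with a mean between 10 and 50 passed that ratio, a range with 3 of the members. Of the 24 genes with a mean between 100 and 500, 7 passed that ratio, a larger share than the 17.4% of all 4219 tested genes in that range. Above 500, 0 of 4 members passed it, against 12.65%. These differences were not tested. The ratio compares 3 libraries in 1 group and 2 in the other, which by itself makes it larger in NSD2-KD cells.

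TM7SF2, one of the pair of enzymes that can reduce the sterol after the CYP51A1 step, fell under the filter. It had 5.72 and 5.14 normalized counts in Ctr-KD cells (6 and 5 reads) and 9.20, 9.83 and 10.7 in NSD2-KD cells (10, 9 and 11 reads). All NSD2-KD libraries were above both controls, but their counting intervals overlapped. In the fit without a filter, its log2 difference was 0.76 with a standard error of 0.35 (limma adjusted p = 0.657). It overlaps VPS51 on the same strand, which leaves its few reads uncertain.

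Of 42 other genes of sterol and fatty acid metabolism, 35 were tested, and 0 were lower or higher at a limma adjusted p under 0.05. At an unadjusted p under 0.05, 3 were lower (8.57%) and 1 higher (2.86%), beside the 4.99% and 4.19% of all tested genes. The lower ones were LBR, ELOVL4 and GPAM, and the higher one was LPIN1. NR1H3, which encodes a sterol-sensing nuclear receptor, had the highest log2 difference (0.34, standard error 0.26, limma adjusted p = 0.75). NSD2-2 was the lowest of the 3 NSD2-KD libraries in 6 of the 35 (17.1%), unlike in the sterol synthesis genes. The difference between the 2 sets was not tested.

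LBR, which encodes both a nuclear lamina receptor and the other sterol reductase of the TM7SF2 step, lies on chromosome 1 (GRCh37, 225589204 to 225616627). It had 154 and 186 normalized counts in Ctr-KD cells (170.3 ± 22.5, SD, n = 2) and 76.4, 80.8 and 67.4 in NSD2-KD cells (74.9 ± 6.87, SD, n = 3), with no overlap. The log2 difference was -1.17 (standard error 0.16, 95% interval -1.54 to -0.80) and the limma adjusted p 0.0626, just above the threshold. The adjusted p was 0.0399 with edgeR and 0.000616 with DESeq2, while limma gave 0.047 with robust estimation and 0.0511 with voom. In limma without the trend the adjusted p was 0.209. The log2 difference was -1.31 without Ctr-KD replicate 1 and -1.04 without Ctr-KD replicate 2. A lone control has no spread of its own, so no p-value is given for those fits.

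ELOVL4, an elongase of very long fatty acids, had 35.2 and 46.3 in Ctr-KD cells and 23.9, 21.8 and 22.5 in NSD2-KD cells, a log2 difference of -0.80 (standard error 0.23, limma adjusted p = 0.319). GPAM, the acyltransferase that starts glycerolipid synthesis, had 41.9 and 51.4 against 19.3, 38.2 and 16.6, a log2 difference of -0.98 (standard error 0.35, limma adjusted p = 0.433). LPIN1, the lipin phosphatase of the same route, had 162 and 167 against 213, 188 and 219.6, a log2 difference of 0.33 (standard error 0.13, limma adjusted p = 0.484). In all 3 the groups did not overlap, but none passed the threshold over all tested genes. They were picked by their unadjusted p, so the lack of overlap gives no separate support. Of the 35 tested genes of this list, 5 lay below both controls (14.3%), against 13.9% of all tested genes. Another 2 lay above both (5.71%), against 13.8%.

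**Figure D4:**
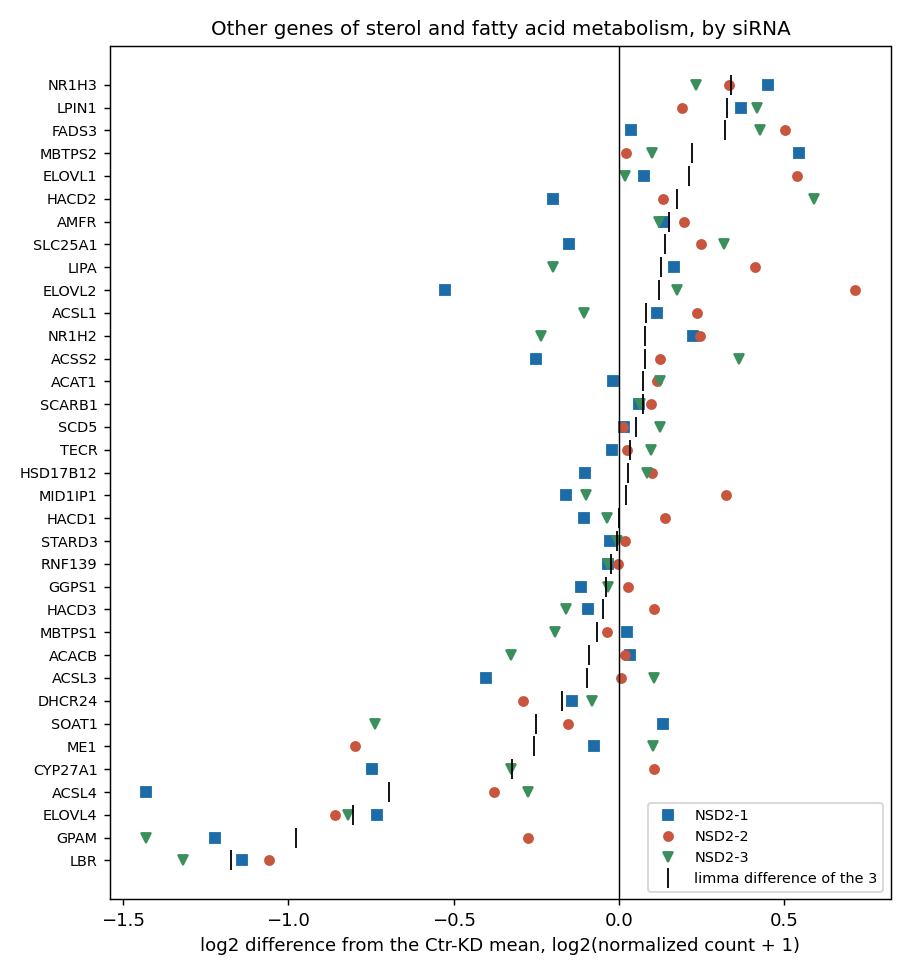
Log2 difference from the Ctr-KD mean for each NSD2 siRNA (symbols) in the 35 tested other genes of sterol and fatty acid metabolism, ordered by the limma difference of the 3 libraries (bars). LBR, GPAM and ELOVL4 stand at the low end (-1.17, -0.98 and -0.80), and the highest gene, NR1H3, is at 0.34.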

How the data were processed

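IMR-90 cells were profiled by mRNA-seq from poly(A) RNA, with 150-base single-end reads and a kit that does not mark strand. Per the labels and the study's methods, reads were trimmed, aligned to hg19 (HISAT2), restricted to unique hits (SAMtools) and assigned to genes (featureCounts). The annotation and strand setting are not given in the sources used here, so overlapping genes are uncertain. The authors deposited a signal, the count of reads on a gene over a size factor from DESeq2. All values (100%) came out as whole reads, within 0.01 of a read. The authors' own table of their DESeq2 comparison was not used.

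Groups came from the sample labels. Log2(normalized count + 1) of the 11313 genes with a mean of at least 10 was fitted with limma 3.58.1 (R 4.3.3), with a mean-variance trend, no covariates and all 5 libraries, two-sided, with Benjamini-Hochberg adjustment over all tested genes and a threshold of 0.05. This scale understates changes of low genes. The alternatives were pseudocounts of 0.5 and 5, a filter at 50 or none, robust estimation, no trend, TMM scaling, quantile normalization, a block for the replicate number, each library left out, and, on whole reads, limma-voom, edgeR 4.0.16 and DESeq2 1.42.0. The fits were also run on simulated data with the same spread in both groups. These libraries do not have that, so the run does not vouch for the p-values given here. Named were all 35 members, the genes of the wider list at an unadjusted p under 0.05, and its 2 highest and 2 lowest. Members and lists were chosen with earlier results of these data known. Positions and exon lengths are from GENCODE on GRCh37, promoters from RefSeq on GRCh38.p14.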

Additional observations from a re-analysis of the deposited data

How the results depend on the processing

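Over 17 alternatives, no member passed an adjusted p of 0.05 in limma, edgeR, DESeq2 or limma-voom, and the smallest adjusted p of a member was 0.177. Of 574 member values, 35 in 18 members changed sign, at most to 0.34 on the log2 scale, and none of these was called. The median of all tested genes moved by less than 0.1 under every scaling. Depth limited HSD17B7 and TM7SF2 most, with between 5 and 21 reads per library.

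The members above both Ctr-KD libraries numbered 2 with no filter and 0 after quantile normalization. The other pathway genes at an unadjusted p under 0.05 numbered 1 lower with a minimum mean of 50, and 0 higher in limma without the trend and in DESeq2, and 1 (LBR) was lower at an adjusted p under 0.05 with robust estimation, edgeR and DESeq2. Over all tested genes, those lower and higher at an adjusted p under 0.05 were 1 and 0 in limma without the trend and 44 and 14 in DESeq2, with 8 higher after quantile normalization and 11 lower in edgeR. Signs turned for NSDHL (0.019) and FASN (-0.0067) after quantile normalization, and for MSMO1 and INSIG1 in edgeR (0.0027 and 0.033) and DESeq2 (0.0033 and 0.041). The causes were not tested.

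Replicate numbers are those of the siRNAs in NSD2-KD cells, and the labels give no pairing of samples. Deviations of same-numbered libraries correlated at -0.0152 and -0.0267. The controls differed by little more than counting noise, so this correlation cannot decide whether samples were paired. With a replicate block, the other pathway genes gave 1 lower at an adjusted p under 0.05 (LBR, 0.0269) and 5 lower and 0 higher at an unadjusted one, and all tested genes 84 lower and 18 higher. In that fit EBP was at -0.023, INSIG1 at 0.34 and ELOVL6 at 0.011, the members at an unadjusted p stayed at 1 lower and 0 higher, and NSD2-KD replicate 3, which has no partner, does not bear on the difference.

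With 1 library left out at a time, the members below both remaining controls ran from 3 to 7 and those above from 3 to 10, with the highest counts without Ctr-KD replicate 1 and without NSD2-2. Fewer libraries make such separation more common. Members at an unadjusted p under 0.05 ran from 0 to 2 lower and 0 to 1 higher, the other pathway genes from 1 to 4 lower and 0 to 2 higher, and all tested genes at an adjusted p under 0.05 from 0 to 22 lower and 0 to 8 higher, with 0 of either without a Ctr-KD library, where the lone control is assumed to vary like the other group. Medians ran from -0.028 to 0.056 for all members, 0.051 to 0.17 for the regulators and 0.066 to 0.14 for transport. Log2 differences changed sign within these ranges: ACAT2 -0.19 to 0.036, HMGCS1 -0.0064 to 0.30, MVK -0.41 to 0.086, PMVK -0.38 to 0.057, IDI1 -0.38 to 0.078, FDFT1 -0.15 to 5.0e-05, SQLE -0.32 to 0.056, MSMO1 -0.23 to 0.24, NSDHL -0.088 to 0.040, EBP -0.14 to 0.16, SC5D -0.17 to 0.12, INSIG1 -0.28 to 0.34, INSIG2 -0.041 to 0.30, FASN -0.0024 to 0.053, SCD -0.083 to 0.0044, ELOVL6 -0.23 to 0.066, STARD4 -0.11 to 0.29 and NPC1 -0.028 to 0.28.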
